A study of Drosophila melanogaster with 30 samples.

Results

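The response of head RNA to an acute heat shock (HS) was measured in flies that upregulate dTrmt10A. Of the 30 libraries of the series, 6 were compared: 3 input libraries of UAS-dTrmt10A heads after HS and 3 input libraries of unheated (basal) heads of the same genotype. Both groups have the genotype DaGal4> UAS-dTrmt10A, in which the daughterless driver expresses a C-terminally FLAG-HA tagged open reading frame of dTrmt10A (CG14618, the fly homolog of the tRNA methyltransferase gene TRMT10A) throughout the body, so the transgene is shared and only the heat differs. Males from crosses at 25 °C were collected 1 to 2 days after eclosion. HS flies were held in vials of 20 for 30 min at 38.5 °C and collected immediately after HS. Each replicate is polyA+ RNA from 200 heads, pooled and fragmented before the m6A immunoprecipitation (IP), and the input is the fraction set aside before the IP. The labels call the 3 replicates of each group biological, without saying how the animals were grouped. In RNA from whole heads, fewer cells of a type and less RNA per cell cannot be told apart. Total counts were between 20110909 and 51006574 in basal libraries and between 25382105 and 38532494 in HS libraries.

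In Drosophila, heat activates the transcription factor Hsf, which trimerizes and binds heat shock elements in the promoters of chaperone genes. These genes encode Hsp70, the small heat shock proteins, Hsp90 (Hsp83), Hsp40 proteins such as DnaJ-1 and the BAG-domain co-chaperone starvin (stv), which hold, refold or dispose of damaged proteins. Most other transcription is repressed during HS, and splicing of nascent RNA is impaired, so genes without introns are a classical feature of the response.

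A heat shock element is built from the unit NGAAN in alternating orientation. The promoter of each gene, taken as 250 bases before and 50 bases from the annotated gene start in dm6, was searched on both strands for 3 such units in a row. The letters sought were GAA, TTC and GAA with 2 free bases between neighbors, or TTC, GAA and TTC on the other strand, and matches can overlap where units are repeated. A match was found in 7 of the 14 heat shock genes that rose more than 16-fold (below called induced heat shock genes), in 0 of the 13 other members of the heat shock lists, and in 0.442% of the promoters of all 17433 genes with a position. When 1 of the 9 fixed letters was allowed to differ, the numbers were 10 of 14, 1 of 13 and 8.23%. The 7 exact matches were in the 6 Hsp70 copies and in Hsp68. The copies are nearly identical, so these are not 7 separate cases. The 13 other members include Hsp22, CG4456 and CG2887, which were not tested for a rise. The windows below are shown because they hold a match, with at most 1 differing letter, before the annotated start. They were not chosen by the size of the rise: Hsp27, which rose more than Hsp68, Hsp26 and Hsp23, had no such match. Capitals mark the letters that match the motif, and each sequence is on the strand of its gene. The Hsp70 window was identical in all 6 copies and is shown at chr3R:11956580-11956608 (dm6, minus strand) of Hsp70Aa, where the match ends 44 bases before the annotated start. The Hsp68 window is at chr3R:24057462-24057490 (minus strand). The Hsp26 window at chr3L:9377628-9377656 (minus strand) and the Hsp23 window at chr3L:9381701-9381729 (plus strand) hold 8 of the 9 fixed letters.
Hsp70Aa: cgcgcctcGAAtgTTCgcGAAaagagcgc
Hsp68: ctcgaaatTTCctGAActTTCagtccttt
Hsp26: ctacatttaAAatTTCtcGAAactcatgg
Hsp23: taattgcgGcAaaTTCgaGAActctgcga
No exact 3-unit match was found in the windows of Hsp27, Hsp83, DnaJ-1, stv or Hsp67Bc, which says only that these letters are not in those 300 bases, and a match is a description of sequence, not of binding.

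Among 10352 genes in edgeR's quasi-likelihood test, 1938 were higher in HS (18.7%) and 2278 were lower (22.0%) at an adjusted p under 0.05. The rises reached further than the falls: 333 genes rose and 278 fell more than 2-fold, and 50 rose and 1 fell more than 16-fold. In either direction 4216 genes were called, 40.7% of those tested. In 4172 of them the 3 HS and the 3 basal libraries did not overlap. With 3 libraries per group, genes that pass the test seldom overlap, so this count adds no support to the calls. The split depends on how the libraries are scaled. Values here are counts per 1000000 counts of the TMM-scaled library (CPM), where TMM is a scaling that centers most genes on no change. Scaled by total counts instead, 488 genes were higher and 6084 lower, with the median of all genes at a log2 fold change of -0.37. A rise smaller than this shift falls to about 0 or below when total counts are used. Both scalings are relative to the other RNA of the library, so larger rises are not measures of RNA per head either.

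**Figure D1:**
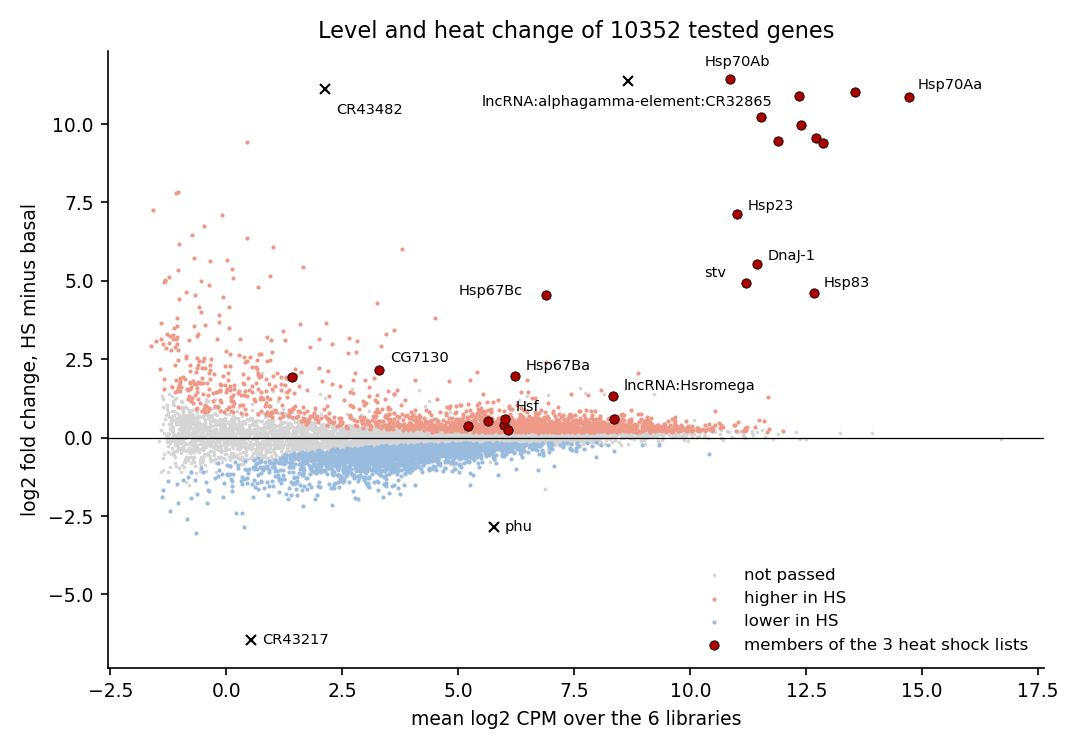
Mean log2 CPM over the 6 libraries (x axis) and log2 fold change of HS over basal (y axis) for 10352 tested genes, colored by whether they passed the test; dark red points are members of the 3 heat shock lists and crosses mark 4 other genes named in the text. The induced heat shock genes sit at the upper right, the genes called lower lie mostly at intermediate levels, and CR43217 is the lowest point at -6.45.

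The Hsp70 genes were expressed at low to moderate levels in basal heads, between 1.28 CPM for Hsp70Ab and 36.3 CPM for Hsp70Aa, and after HS Hsp70Aa drew more counts than any other nuclear gene. Together the 6 copies held 0.00840% ± 0.00068 (SD, n = 3) of the counts in basal libraries and 9.88% ± 0.090 (n = 3) in HS libraries. Hsp70Aa had 36.3, 23.6 and 27.4 CPM in the 3 basal libraries and 55634, 53910 and 51879 CPM in the 3 HS libraries. The HS libraries lay close to each other, and the groups were far apart. The rise was 10.85 ± 0.21 on the log2 scale (SE, adjusted p = 5.85e-09). All 6 copies rose (6 of 6, against 18.7% of all genes), by between 9.39 for Hsp70Bb and 11.44 for Hsp70Ab on the log2 scale. Per kb of exon, Hsp70Aa had the highest level after HS among the copies (22589 CPM per kb) and Hsp70Ab the lowest (1562 CPM per kb). The copies are nearly identical in sequence, so how reads were divided among them is uncertain and the sum is the safer value.

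The small heat shock proteins, ATP-independent holdases that keep unfolded proteins soluble, split into strongly induced and weakly changed members. Of 12 members, 10 could be tested, 8 rose and 0 fell, with a median log2 fold change of 1.94 against 0.00 over all genes tested. Hsp27 had 11, 10.4 and 10.4 CPM in basal libraries and 11337, 10299 and 10502 CPM in HS libraries. These 3 basal libraries were almost equal, and the rise was 9.98 ± 0.10 (adjusted p = 9.84e-11). Hsp26 rose from between 9.26 and 11.7 CPM to between 7222 and 8190 CPM, by 9.46 ± 0.14 on the log2 scale. Hsp23 started higher, at 19.5, 34.3 and 33.4 CPM, and reached 4554, 3695 and 4022 CPM, a rise of 7.13 ± 0.24. Its basal library 1 was the lowest of the basal group and its HS library 1 the highest of the HS group. Hsp67Bc rose 23.6-fold and Hsp67Ba 3.88-fold. CG14207, l(2)efl and CG13133 rose by 0.59, 0.53 and 1.93 on the log2 scale. CG13133 was near the limit of detection, with 1.89 CPM in HS library 3 against 1.62 CPM in basal library 1, and its call was lost without basal library 3 (adjusted p = 0.0528) or HS library 1 (adjusted p = 0.0506). CG4461 (log2 fold change 0.38, adjusted p = 0.0509) and CG7409 (0.24, adjusted p = 0.171) did not pass, and their groups overlapped. Hsp22 was listed at 0 counts in all 6 libraries. Its annotated span (chr3L:9372931-9374964) overlaps that of CG4456, also known as Hsp67Bb, which had counts in HS library 3 only (0.0573 CPM). Reads that fall on 2 genes are left out by the counting mode the study names, and no level of Hsp22 can be read from these counts.

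The larger chaperones and their partners rose in all 3 HS libraries, the most in Hsp68. Hsp68, an inducible Hsp70 relative, had 21.2, 14.5 and 18.2 CPM in basal libraries and 14373, 13348 and 12694 CPM in HS libraries, a rise of 9.55 ± 0.18. Hsp83, the cytosolic Hsp90, is abundant without stress: its basal values of 602, 396 and 530 CPM became 13339, 11659 and 12255 CPM. The rise was 4.61 ± 0.16 (24.4-fold, adjusted p = 6e-07). DnaJ-1, the Hsp40 that delivers clients to Hsp70, rose 46.3-fold, from between 98.4 and 132 CPM to between 5022 and 5669 CPM. The nucleotide exchange factor stv rose 30.4-fold, from 143, 149 and 154 CPM to 4696, 4555 and 4342 CPM. In basal heads Hsp83 had 172 CPM per kb and DnaJ-1 54.2, against 8.05 for Hsp68, so the genes with the smaller folds were those already expressed. After HS the levels per kb were 4195 for Hsp83, 2510 for DnaJ-1 and 6038 for Hsp68.

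The remaining members of this list rose far less. Hsf itself, the activator of the response, had 50.1, 48.4 and 55.4 CPM in basal libraries and 79.3, 79.0 and 73.0 CPM in HS libraries, a rise of 0.59 ± 0.07 (adjusted p = 0.000531) with no overlap. The nuclear noncoding RNA lncRNA:Hsromega, which organizes stress-induced nuclear bodies, had 170, 185 and 205 CPM and then 600, 421 and 371 CPM. All HS libraries were above all basal ones, with the widest spread in HS, and the rise was 1.31 ± 0.17. The DnaJ-domain genes CG7130 and CG5001 rose by 2.15 and 0.42 on the log2 scale. CG2887 was too low to be tested. All 8 tested members of this list rose, although CG5001 did not pass when total counts were used. The 3 heat shock lists together held 0.187% of the counts in basal libraries and 15.1% in HS libraries.

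**Figure D2:**
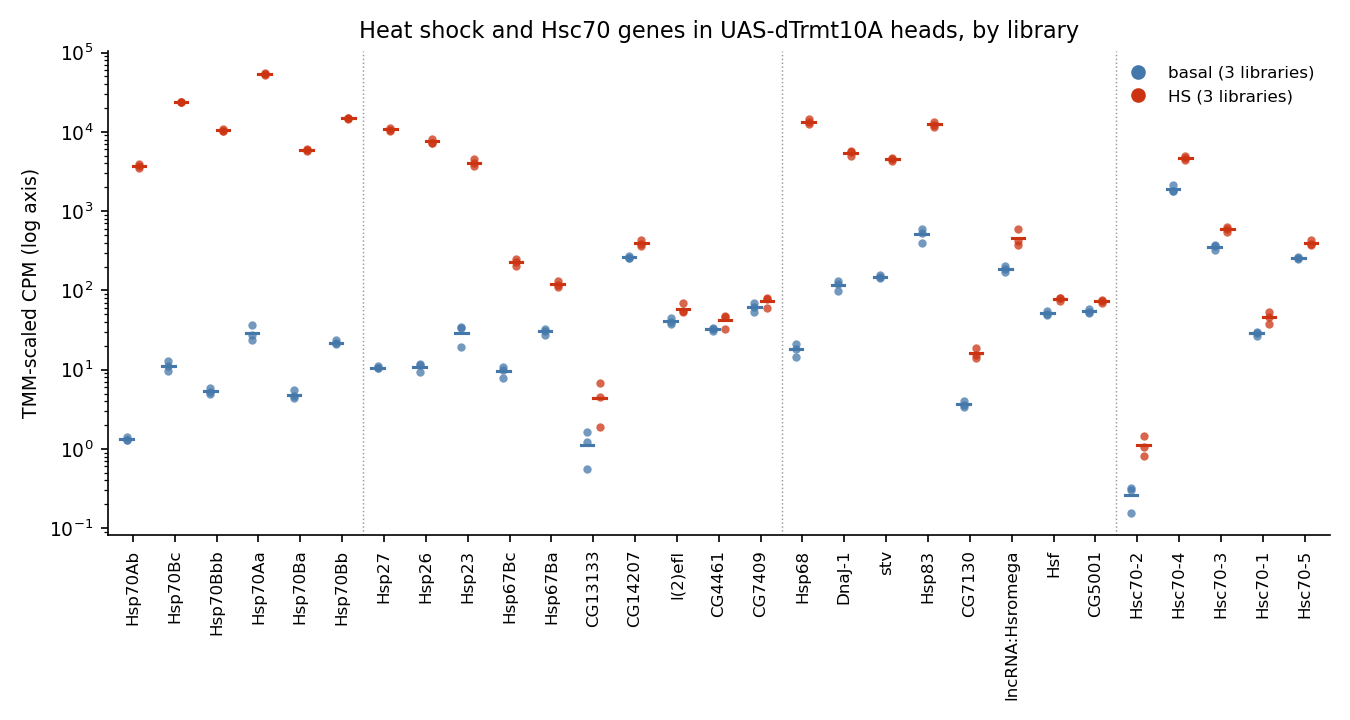
TMM-scaled CPM on a log axis for the members of the 3 heat shock lists and the constitutive Hsc70 family that had counts in all 6 libraries (dotted lines separate the lists); points are the 3 basal (blue) and 3 HS (red) libraries and bars their means. The groups overlap only for CG4461 and CG7409, and Hsp70Aa spans from 23.6 to 55634 CPM.

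All 5 constitutive Hsc70 genes, which fold proteins in the absence of stress, also rose, by much smaller amounts than the Hsp70 copies. Hsc70-2 had the largest rise of the 5 (2.21 ± 0.39), but on few counts, between 7 and 9 in basal and between 18 and 37 in HS libraries. In control heads, where its basal mean was 19.4 CPM, its log2 fold change was 0.0048. Hsc70-4, the major cytosolic form, had 2105, 1798 and 1773 CPM in basal libraries and 4990, 4469 and 4629 CPM in HS libraries (log2 fold change 1.31 ± 0.09). Hsc70-3, the ER form BiP, rose by 0.75, and the mitochondrial form Hsc70-5 by 0.63. Hsc70-4 had the highest level of the family per kb in both conditions, 697 CPM per kb in basal heads and 1729 CPM per kb after HS. Among the co-chaperones 6 of 15 rose and 0 fell (median 0.07), against 18.7% and 22.0% over all genes, and with total counts 2 were higher and 7 lower. Hsc70Cb, the Hsp110-type exchange factor, was the member with the largest rise, from 128, 120 and 126 CPM to 349, 298 and 322 CPM (1.37 ± 0.07). The myosin chaperone unc-45 rose by 0.80 and the Hsp40 Droj2 by 0.50. Among the chaperonins 7 of 12 rose and 1 fell. The risers included the TRiC subunits CCT8 (0.76), CCT5 (0.67) and CCT2 (0.66), and the member that fell was the mitochondrial GrpE homolog Roe1 (-0.59 ± 0.09). Scaled by total counts, 4 chaperonins were higher and 6 lower, and CCT8, CCT5 and CCT2 kept their direction.

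Outside the chaperones, the gene with the largest rise among well-measured genes was lncRNA:alphagamma-element:CR32865, the heat-inducible noncoding RNA of the Hsp70 locus at 87C. It had 0.395, 0.440 and 0.190 CPM in basal libraries and 798, 766 and 841 CPM in HS libraries, a rise of 11.36 ± 0.20. It lies at chr3R:12475336-12478267, between Hsp70Ba and Hsp70Bbb. CR43482, annotated as a pseudogene, had 0 counts in every basal library and 235, 185 and 284 counts in the HS libraries. Against a floor of 3 counts over the basal group this is at least 243-fold higher.

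CR43482 starts 418 bp downstream of Hsp27 on the same strand. Within 5 kb of the 14 induced genes, the annotation has 34 other genes, of which 26 were tested: 11 rose, 4 fell and 11 did not pass, with 18.7% higher and 22.0% lower over all genes. asRNA:CR43481, 733 bp from Hsp26 and 763 bp from Hsp23, rose by 6.0, with at most 25 counts in a basal library and up to 860 in an HS library. CR46154, 121 bp downstream of Hsp70Bbb on the same strand, rose by 3.65. Fdx1 (ferredoxin 1, an electron carrier), 273 bp downstream of Hsp67Bc on the same strand, had 6.80, 6.40 and 5.96 CPM in basal libraries and 14.7, 15 and 15.4 CPM in HS libraries (1.25 ± 0.09). Not every gene at a like place moved in this way: CG5608, 155 bp downstream of Hsp70Ba on the same strand, was at 0.06 (adjusted p = 0.623). CR46155, 121 bp downstream of Hsp70Bb on the same strand, had 0 counts in all 6 libraries and was not tested, so its response is unknown. The other 7 that rose did so by at most 0.49: CG31211, CG4080, Octbeta3R, Pisd, Tgi, Usp47 and sif. Of these, CG4080, Tgi and sif rose by more than the 0.37 by which scaling moved the median, and the others did not. The genes that fell were CG14965 (478 bp upstream of Hsp83, -1.37), CG3281 (overlapping Hsp70Ab on the opposite strand, -0.87), SMC1 (-0.24) and CG12213 (-0.21).

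**Figure D3:**
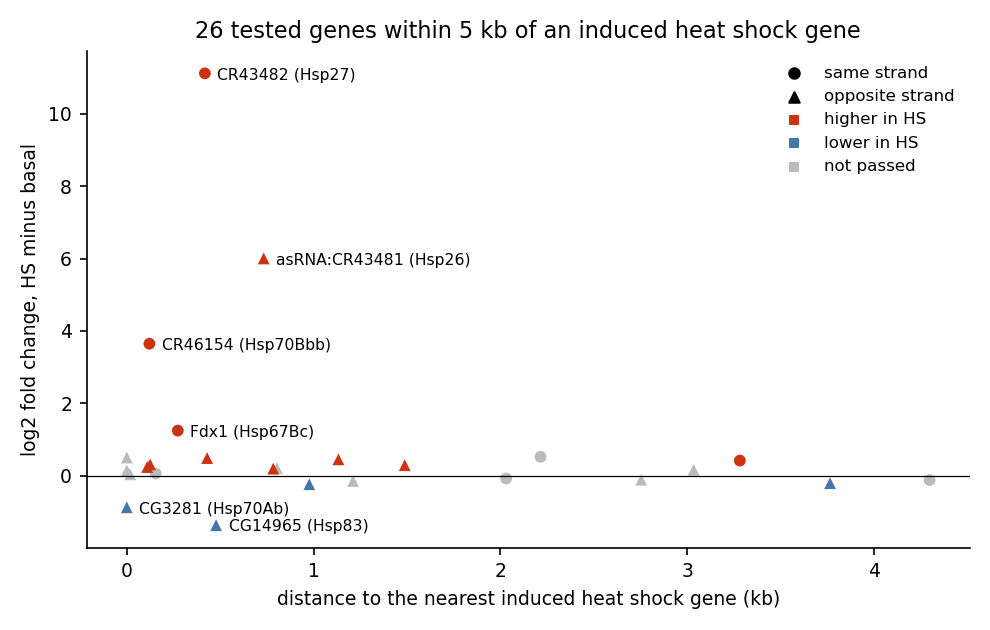
Log2 fold change (y axis) of 26 tested genes against their distance in kb from the nearest induced heat shock gene (x axis; 0 means overlapping); circles share its strand, triangles do not, and color gives the test. CR43482, asRNA:CR43481, CR46154 and Fdx1 stand above the rest, all within 1 kb.

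A further set of genes had almost no reads in basal heads and low but steady reads after HS. With at most 3 counts over the 3 basal libraries (93004150 counts in all) and at least 10 counts in each HS library (89763829 counts in all), there were 19 such genes, and the reverse was true of 1. These genes were chosen after their values were seen and receive no test as a group. CG5157 had 0 counts in the basal libraries and 70, 56 and 97 in the HS libraries, at least 77.0-fold higher. Porin2, a paralog of the mitochondrial outer membrane channel, had 3 counts over the basal libraries and 81, 34 and 106 counts in the HS libraries. Inx5, an innexin, had 1 count and then 38, 43 and 69. ATPsynbetaL, a paralog of the ATP synthase beta subunit, had 2 counts and then 15, 21 and 22, while the other 60 tested nuclear genes of oxidative phosphorylation did not pass. With total counts 59 of these 61 were lower, with a median of -0.33. Only CR43482 among the 19 lies within 5 kb of an induced heat shock gene. The reverse case was CR43217, a pseudogene on the X chromosome, with 61, 62 and 147 counts in basal libraries and 1, 1 and 0 counts after HS. The adjacent pseudogene CR43216 fell by 2.60 on the log2 scale.

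Gene structure differed between the strongest changes and the rest, as a description. A single exon was annotated for 11 of the 14 induced heat shock genes, for 25.5% of the genes that rose more than 2-fold and for 22.7% of those that fell more than 2-fold, against 10.5% of all genes tested. The median number of exons was 2 in both groups of strong changes and 4 over all genes.

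Among other stress genes, those of the immediate early and JNK stress list, mostly transcription factors, rose in 11 of 16 cases and fell in 2, against 18.7% and 22.0% over all genes. Ets21C, an Ets factor induced by injury and stress, had 1.45, 1.28 and 2.06 CPM in basal libraries and 19.0, 8.48 and 5.73 CPM in HS libraries (2.71 ± 0.45, adjusted p = 0.00192). Hr38, an activity-regulated nuclear receptor, had 12.5, 16.6 and 18.5 CPM and then 99.6, 61.8 and 46.4 CPM (2.11 ± 0.27). In both genes HS library 1 was well above the other HS libraries. No HS library overlapped a basal one, which is usual for called genes and does not offset this spread. Atf3 was even across libraries (30.4, 23.7 and 28.1 CPM, then 60.6, 59.3 and 58.7 CPM), and kay, which encodes Fos, rose by 0.73. cbt and bsk, the JNK gene, fell by 0.45 and 0.28. Rel, the NF-kappaB factor of the Imd immune pathway, rose from between 72.3 and 80.8 CPM to between 152 and 190 CPM (1.11 ± 0.10).

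Of 14 antimicrobial peptide genes 6 rose and 0 fell, against 18.7% and 22.0% over all genes. The risers were the 4 cecropins and 2 of the 4 attacins: AttB by 1.83, CecA1 by 1.81, AttA by 1.79, CecA2 and CecC by 1.65 and CecB by 1.44. AttB had 19.6, 13.2 and 17.5 CPM in basal libraries and 68.8, 59.2 and 51.7 CPM in HS libraries, without overlap. The attacins AttC (0.81, adjusted p = 0.182) and AttD (1.00, adjusted p = 0.136) did not pass. The defensin, diptericin, drosocin, drosomycin and metchnikowin genes did not pass either, with log2 fold changes of 0.02 (Def), -0.18 (DptA), 0.21 (DptB), 0.39 (Dro), 0.30 (Drs) and 0.26 (Mtk). Of the detoxification genes 11 of 22 rose and 0 fell. GstE1, a glutathione S-transferase, went from 59.0, 58.1 and 55.0 CPM to 156, 125 and 128 CPM (1.25 ± 0.09). Keap1, the sensor of electrophilic stress, rose by 0.46, and the values of superoxide dismutases 1 and 2 (Sod1, 0.10, and Sod2, 0.04) did not pass. With total counts 5 of the 22 were higher and 7 lower, and GstE1 remained higher.

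Of 17 genes of ubiquitin and autophagy, 3 rose and 4 fell, shares close to the 18.7% and 22.0% over all genes. Only 1 fell without basal library 3 and 2 without HS library 1, and with total counts 1 was higher and 11 were lower. ref(2)P, the p62 receptor that links ubiquitinated proteins to autophagy, had 178, 180 and 180 CPM in basal libraries and 776, 818 and 669 CPM in HS libraries (2.07 ± 0.08, adjusted p = 1.42e-06). It was the member of its list with the largest change, and the basal libraries were almost equal. The polyubiquitin gene Ubi-p63E rose by 0.52. Atg9, the membrane scramblase of autophagy, fell by 0.53. None of the 32 proteasome subunits passed in either direction in this edgeR fit, nor under DESeq2's size factors, and their log2 fold changes lay between -0.12 and 0.30. In the ER unfolded protein response 4 of 20 genes rose and 4 fell (2 without HS library 1), again close to the shares over all genes, and with total counts 0 were higher and 16 lower. PEK, the eIF2alpha kinase PERK, rose by 0.56 and the ER Hsp90 Gp93 by 0.48 (both positive but not past the threshold with total counts), while the BiP exchange factor Sil1 fell by 0.64 and the oxidase Ero1L by 0.34. Metabolic regulators also changed. The lipase brummer (bmm) had 88.2, 103 and 92.2 CPM and then 254, 247 and 246 CPM (1.40 ± 0.07). The zinc finger gene sugarbabe (sug) went from 20.1, 12.9 and 14.6 CPM to 3.64, 8.4 and 4.53 CPM (-1.53 ± 0.28). The insulin receptor gene InR rose by 1.05.

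The falls were smaller than the rises. Above a mean level of 1 log2 CPM, phu had the largest fall, from 85, 38.4 and 159 CPM to 14, 17.5 and 8.63 CPM (-2.84 ± 0.48, adjusted p = 0.00222). Its basal libraries differed among themselves by a factor larger than in the other genes named here. The 12 largest falls were taken only from genes whose groups did not overlap, so the lack of overlap does not offset this spread. Saf6, a TAF6-like subunit of the SAGA coactivator, was more even, with 11.6, 10.8 and 11 CPM and then 2.14, 3.17 and 3.15 CPM (-1.96 ± 0.15). The SOX transcription factor Dichaete (D) fell from 14.8, 17.6 and 15.7 CPM to 3.91, 4.02 and 4.84 CPM (-1.90 ± 0.12). Toll-6, a receptor of the Toll family, fell from between 18.9 and 23.2 CPM to between 5.82 and 6.03 CPM (-1.80 ± 0.10). The other 8 of the 12 largest falls were CG31125, CG10958, CG17612, CG10959, CG30467, CG8173, CG32095 and CG13123, which fell by between 1.81 and 2.17.

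Mitochondrial ribosomal protein genes, nuclear genes for translation inside mitochondria, fell together: 51 of 72 tested were lower and 0 higher, against 22.0% lower over all genes, with a median of -0.38. mRpL41 had 10.8, 11.9 and 10.9 CPM in basal libraries and 6.77, 5.49 and 6.42 CPM in HS libraries (-0.84 ± 0.11), and mRpS18A and mRpL54 each fell by 0.70. Leaving out 1 library gave between 35 and 46 lower. Of 16 tested transcripts encoded in the mitochondrial genome, 3 rose and 0 fell, and with total counts 1 was higher and 10 were lower. The small ribosomal RNA mt:srRNA had 33.5, 40.9 and 38.2 CPM and then 272, 161 and 167 CPM (2.41 ± 0.20). The mRNAs mt:ATPase8 and mt:ATPase6, for subunits of the ATP synthase, rose by 0.52 and 0.22, and mt:ATPase6 was below 0 with total counts (-0.15) and lost its call without basal library 2 or 3 or HS library 1 or 2 (adjusted p between 0.0698 and 0.134). The large ribosomal RNA mt:lrRNA was at -0.06 on the log2 scale (adjusted p = 0.692).

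Of 10 genes of the m6A machinery, which writes or reads the mark targeted by the IP, 6 were lower and 0 higher. Over all genes the shares were 22.0% and 18.7%, and 9 of the 10 were lower with total counts. These are RNA levels of the genes, not levels of m6A. virilizer (vir), a scaffold of the writer complex, had 20.5, 20.3 and 21.6 CPM in basal libraries and 9.82, 10.0 and 9.58 CPM in HS libraries (-1.09 ± 0.08, adjusted p = 5.23e-05). The libraries within each group were close to each other. Hakai fell by 0.39, the reader Ythdf by 0.34 and the writer subunit fl(2)d by 0.26. The catalytic subunit Mettl3 had 4.17, 4.04 and 4.51 CPM and then 1.36, 3.62 and 3.41 CPM. HS library 1 was far below the other HS libraries, and the difference did not pass (-0.59, adjusted p = 0.149). Mettl14, its partner (-0.46), lost its call without basal library 3 (adjusted p = 0.0617), and Fmr1, a reader (-0.25), lost it without HS library 1 (adjusted p = 0.0504). The writer subunit nito was at 0.19 on the log2 scale (adjusted p = 0.0519).

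Many abundant genes rose by small amounts, and the shares called differed with expression level. Of genes with a mean log2 CPM of 7 or more, 47.2% were higher and 2.21% lower, while of those between 3 and 5 the shares were 8.80% higher and 37.9% lower. The relation was not steady, since below 0 log2 CPM 17.4% were higher and 3.36% lower. Length moved with the calls too: 39.9% of genes with at least 4000 bp of exon were higher, against 11.7% of those under 1000 bp. Of the cytosolic ribosomal proteins, which had a median level of 9.34, 73 of 85 rose (median 0.25), but 39 were higher without basal library 2, 41 without basal library 3, 39 without HS library 1 and 37 without HS library 2. With total counts 1 was higher and 22 were lower. Of the phototransduction genes 14 of 23 rose (9 without HS library 2), and with total counts 0 were higher and 9 lower. The neuronal channels rose in 14 of 21 cases and synaptic vesicle release genes in 10 of 15. With total counts 2 channels were higher and 5 lower, and among synaptic genes 0 and 5. The potassium channel Shab rose by 0.73 (273, 275 and 278 CPM, then 460, 474 and 439 CPM) and the calcium channel Ca-alpha1T by 0.58, in both cases more than the shift of the median. When the trend with exon length was removed from each library, 9 of the channels and 7 of the synaptic genes were higher. The mitochondrial ribosomal proteins and the m6A genes had median levels of 3.99 and 5.43, and with the length trend removed 43 mitochondrial ribosomal proteins were lower and 1 higher, and 6 m6A genes were lower. The part of level and length in these small changes was not tested further.

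**Figure D4:**
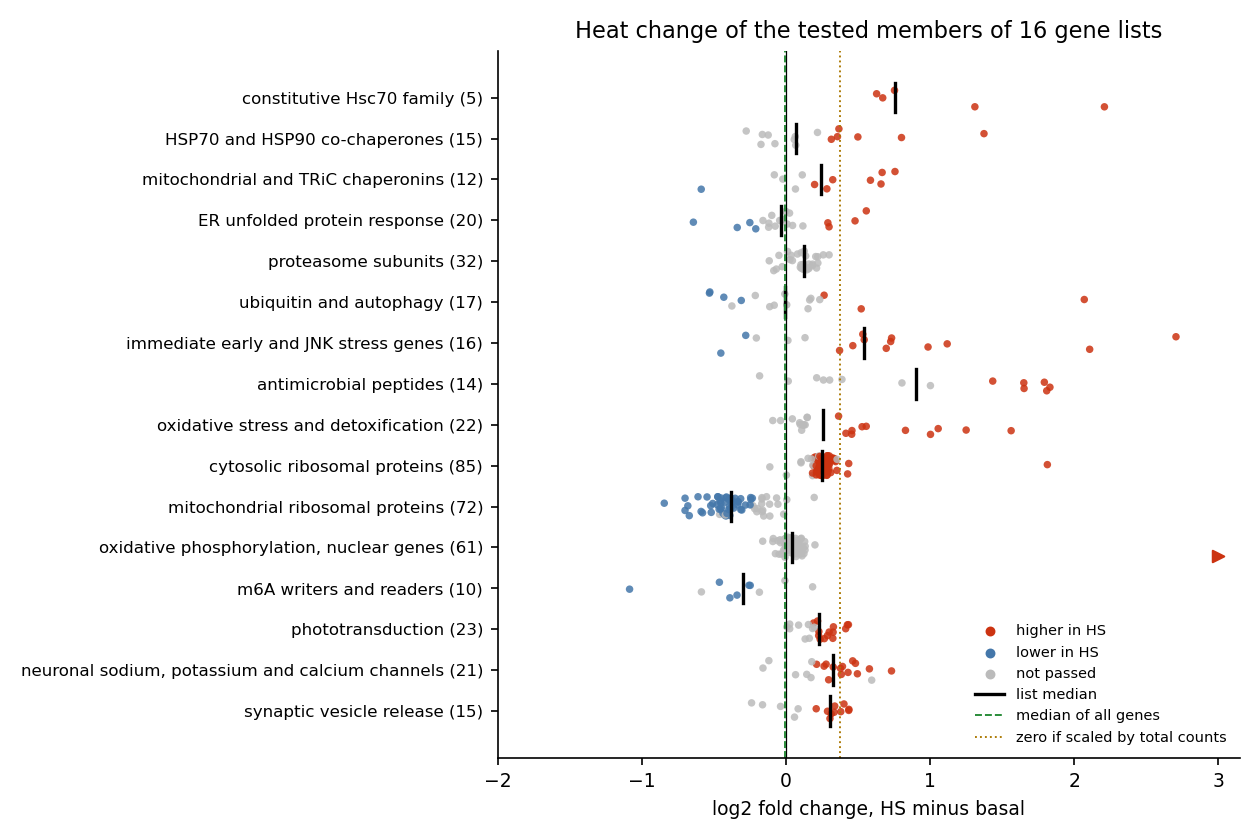
Log2 fold change of HS over basal for the tested members of 16 gene lists (number tested in parentheses); points are genes, colored by the test, black bars are list medians, and the arrowhead is ATPsynbetaL at 5.02. The dotted line at 0.37 shows where 0 would lie if the libraries were scaled by total counts: the medians of the cytosolic ribosomal protein, phototransduction and neuronal lists lie left of it, and the mitochondrial ribosomal proteins lie left of 0.

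Markers of the cell types of the head had medians above 0, but the shares that passed differed between cell types. Over all genes 18.7% were higher and 22.0% lower. The markers of neurons rose in 7 of 10 cases (median 0.29), of photoreceptors in 4 of 7 (0.29), of muscle in 6 of 8 (0.42) and of haemocytes in 3 of 8 (0.25), and 0 of 7 fat body markers passed. These medians, except that of muscle, fall below 0 with total counts. Summed muscle markers were between 6455 and 8051 CPM in basal libraries and between 9205 and 10588 CPM in HS libraries, and 3 muscle markers were higher without basal library 3 and 2 without HS library 1. Without basal library 1, 6 haemocyte markers were higher. Of 10 gut markers, epsilonTry and Jon25Bii were at 0 in all libraries, and 1, the amylase gene Amy-p, could be tested. It rose from 98.7, 85.1 and 87.2 CPM to 114, 146 and 125 CPM (0.50 ± 0.10, adjusted p = 0.00502), and it did not pass with total counts. Of 8 glial markers 3 rose, 1 fell and 4 did not pass (median 0.21), and with total counts 0 were higher and 4 lower. The 1 that fell was the transcription factor repo, from 50.8, 52.5 and 51.5 CPM to 22.4, 27.3 and 21.8 CPM (-1.12 ± 0.09, adjusted p = 8.75e-05). The glial genes Eaat1 and nrv2 rose by 0.31 and 0.33, and both were slightly below 0 with total counts (-0.060 and -0.046). The part of cell composition in these values was not tested.

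The same HS was given to control heads (DaGal4> Control RNAi, the KK control), in 6 other input libraries, which allows both responses to be set side by side without a shared library. Of 4215 genes called in UAS-dTrmt10A heads with a control value, 4065 had the same sign of change in control heads. Among the induced chaperones some had close values: stv rose by 4.93 in UAS-dTrmt10A and 4.95 in control heads, Hsp83 by 4.61 and 4.66, and DnaJ-1 by 5.53 and 5.72. Others were further apart. Hsp70Bc rose by 11.03 and 9.90, Hsp70Aa by 10.85 and 9.91, Hsp70Bb by 9.39 and 10.14, Hsp27 by 9.98 and 9.43 and Hsp67Bc by 4.56 and 5.02. The median of the 6 Hsp70 copies was 10.88 in UAS-dTrmt10A and 10.07 in control heads. After HS, however, Hsp70Aa had means of 54616 CPM in UAS-dTrmt10A and 50711 CPM in control heads. Its basal means were 29.6 ± 6.9 CPM (SD, n = 3) and 52.8 ± 26.4 CPM (n = 3). For Hsp70Bb the basal means were 22.3 ± 1.2 and 12.9 ± 7.4 CPM. The folds of these copies thus rest on low basal values with a wide spread in control heads. The falls of repo (-1.12 and -1.10) and vir (-1.09 and -1.12) were also close. The difference of the responses was tested as a genotype by heat interaction over 12 libraries. Of 10544 genes, 4 passed (0.0379%). In 3 of them the log2 fold change was higher in UAS-dTrmt10A than in control heads, and in 1 it was lower. An unadjusted p under 0.05 was reached by 1534 genes, and more genes passed with the DESeq2 Wald test, as given below. In the edgeR test none of the 24 tested members of the 3 heat shock lists passed, and the interaction for Hsp70Aa was 0.95 (adjusted p = 0.245). The interaction calls do not withstand the loss of single libraries: 0 genes passed without control basal library 2 or 3, control HS library 1 or 3, UAS-dTrmt10A basal library 2, or UAS-dTrmt10A HS library 1 or 2.

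dTrmt10A (CG14618) itself was one of the 4. In UAS-dTrmt10A heads it had 138, 156 and 182 CPM in basal libraries and 241, 240 and 223 CPM after HS, a rise of 0.56 ± 0.10 (adjusted p = 0.00275). These counts cannot tell the transgene from the native gene. In control heads, which have the native gene only, the mean was 7.85 CPM in basal libraries and 5.51 CPM after HS, a log2 fold change of -0.51. The other transgene markers, w and y, had log2 fold changes of 0.15 and -0.13 and did not pass. With total counts 0 of the 3 transgene markers passed, so the rise of CG14618 in UAS-dTrmt10A heads was not called under that scaling.

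**Figure D5:**
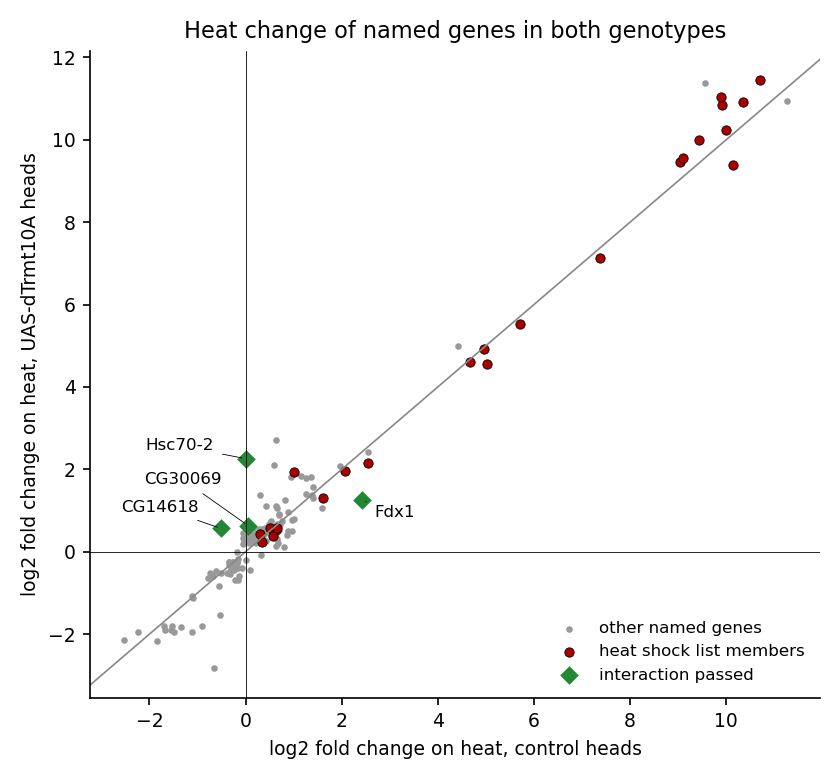
Log2 fold change on heat in control heads (x axis) and in UAS-dTrmt10A heads (y axis) for 160 named genes with both values; dark red points are the 24 heat shock list members, green diamonds the 4 genes that passed the interaction test, and the line marks equal change. Heat shock genes lie along the line, while CG14618, CG30069 and Hsc70-2 lie above it and Fdx1 below.

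The IP libraries of the same animals give another look at the abundant transcripts, though not an independent one. As log2 of the ratio of mean CPM with 0.5 CPM added, the HS over basal difference in IP libraries was 10.68 for Hsp70Aa, 10.35 for Hsp27, 9.40 for Hsp68, 4.72 for Hsp83, 5.53 for DnaJ-1 and 5.06 for stv. The same quantity was -0.86 for vir and -0.75 for repo. These values mix RNA level with the yield of the IP and were not tested.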

How the data were processed

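Input libraries of fragmented polyA+ RNA from fly heads were analysed. According to the methods and the submitters' processing notes, the authors trimmed reads with Trim Galore, aligned them to dm6 with STAR 2.7.3a and counted reads on exons of FlyBase genes with summarizeOverlaps in union mode. Handling of strand and multi-mapped reads is not given in the sources used here. The deposited values are raw counts for 17562 genes, without normalization, and every sample column was mapped to its sample by name. Low genes were removed with edgeR's expression filter (at least 10 counts in enough libraries, at least 15 in total). TMM scaling and the quasi-likelihood F test of edgeR 4.0.16 (R 4.3.3) followed, with Benjamini-Hochberg adjustment over all genes and a threshold of 0.05, on the 6 UAS-dTrmt10A libraries, or on 12 libraries for the interaction. The scripts were tested on simulated data. A floor of 3 counts corresponds to between 0.0518 and 0.136 CPM. The counts carry no molecular identifiers, so floors cover counting error only, and p-values measure the spread between the labelled replicates. Exon lengths, exon numbers and positions are from the Ensembl annotation of dm6, in which 16847 genes matched by symbol, 660 by an older symbol and 55 did not match. Promoter sequence is from the RefSeq genome of the same build. The members, gene lists and tests were chosen with earlier results of these data known.

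Genes were named by rule: measured members of the heat shock and Hsc70 lists, the 12 largest rises and 12 largest falls (called, not overlapping, mean level of 1 log2 CPM or more), up to 3 genes per direction of every other list, genes named in the study, the 5 genes per direction with the smallest interaction p, and called genes within 5 kb of an induced heat shock gene. Other named genes were chosen after their values were seen. Alternatives were DESeq2 1.42.0 size factors and Wald test, total library size, other filters, a replicate block, leaving out mitochondrially encoded genes or 1 library, and all 15 input libraries in one fit. The removal of the trend with exon length was added after the data had been seen. No 2 libraries had identical counts. Figures used Python 3.11.15 and matplotlib 3.10.9.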

Additional observations from a re-analysis of the deposited data

Results flagged for a closer look

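For 4 genes the response to heat differed between UAS-dTrmt10A and control heads in the test of the difference itself (edgeR's genotype by heat interaction, 12 libraries), and each value is the log2 fold change in UAS-dTrmt10A minus that in control heads. As given above, no gene passed when certain single libraries were left out, so all 4 calls depend on single libraries. The difference for CG14618, dTrmt10A itself, was 1.07 ± 0.13 (SE, adjusted p = 0.0189). The difference for CG30069 was 0.57 ± 0.07 (adjusted p = 0.0189): its mean went from 97.6 to 151 CPM in UAS-dTrmt10A heads and from 107 to 111 CPM in control heads. The difference for Hsc70-2 was 2.25 ± 0.32 (adjusted p = 0.0251). In UAS-dTrmt10A heads this gene had only between 7 and 9 counts in basal and between 18 and 37 in HS libraries. Its basal level also differed between the genotypes, with 0.265 CPM in UAS-dTrmt10A heads and 19.4 CPM in control heads, and after HS it was 1.14 and 19.5 CPM. The difference for Fdx1 was -1.17 ± 0.16 (adjusted p = 0.0205), since it rose from 6.49 to 15.3 CPM in UAS-dTrmt10A heads and from 6.25 to 33.5 CPM in control heads.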

How the results depend on the processing

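The counts of genes in the heat response stayed within 1.5 times under every alternative run except total library size, where 488 were higher and 6084 lower. Leaving out 1 library gave between 1541 and 1788 higher and between 1680 and 2106 lower. Of 160 named genes with a heat result, 20 lost the call without 1 of the 6 libraries. With total library size 97 kept direction and call, 36 lost the call and 23 changed sign: CG7409 (-0.13), Cnx99A (-0.071), RpL40 (-0.11), mt:ATPase6 (-0.15), eIF5B (-0.059), eIF4A (-0.13), eIF1A (-0.15), Pdp1 (-0.078), sgg (-0.17), Ald1 (-0.048), nrv2 (-0.046), Eaat1 (-0.060), moody (-0.12), trp (-0.071), srp (-0.010), Col4a1 (-0.030), Nrg (-0.083), pAbp (-0.16), SK (-0.073), RpL32 (-0.075), Cyp6a20 (-0.044), MtnA (-0.22) and RpL41 (-0.27). This scaling counts heat shock transcripts in the library size. With the exon length trend removed Pdp1 (-0.022), sgg (-0.13), unc-13 (-0.036), para (-0.010) and Sh (-0.082) were below 0; the cause was not tested. bru3, near 0 and not past the threshold, was at 0.011 with DESeq2 size factors, 0.012 with the DESeq2 Wald test, and between -0.038 and 0.025 when 1 library was left out. The interaction, with 3 genes higher and 1 lower, gave 5 and 10 with no filter, 183 and 91 with the DESeq2 Wald test, 2 and 0 with the exon length trend removed, and between 0 and 4 higher and between 0 and 2 lower when 1 library was left out. The replicate numbers did not pair the samples (correlations of same-numbered libraries 0.06, -0.18 and 0.0073), and a replicate block gave 1929 higher and 2171 lower in the heat response. Depth limits genes near the floor of 3 counts.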

Other observations

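Over all genes 18.7% were higher and 22.0% lower. Of 36 tested translation initiation factors, 7 rose and 5 fell. Of these, 3 were higher without basal library 2, HS library 2 or HS library 3 and 4 without HS library 1, and 3 were lower without basal library 1, HS library 1 or HS library 2. The subunits of the exchange factor eIF2B eIF2Bdelta and eIF2Bepsilon fell by 0.54 and 0.53 on the log2 scale (20.7 to 14.2 and 17.2 to 11.9 mean CPM), without overlap between groups. Of 19 splicing factors 7 rose and 3 fell, and 1 fell without basal library 3, HS library 1 or HS library 2. In the circadian clock list 3 of 12 genes rose (5 without basal library 2) and 1 fell, and the repressor gene cwo rose by 0.42 ± 0.08. With total library size 0 genes were higher in each of these 3 lists, and 28 of the 36, 13 of the 19 and 6 of the 12 were lower. Of 5 tested Turandot genes, humoral stress peptides, TotA rose from 59.8, 56.4 and 63.7 CPM to 97.7, 143 and 91 CPM (0.88 ± 0.16), with HS library 2 the highest. The metallothioneins did not pass in either direction (0 of 5).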
